A study of Homo sapiens with 6 samples.

Results

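Interferon-stimulated effector genes encode the proteins with which cells block viral entry, viral RNA and viral translation. A list of 42 such genes was followed in L428, an established cell line of human Hodgkin lymphoma. The cells had received either BATF3 siRNA or a control siRNA with no intended target. Each listed gene was represented by the probe set, annotated to that gene alone, that had the highest mean over the 6 arrays. All 42 were found among the 18244 genes measured in this way. The cells were nucleofected, an electroporation method, with 3 µg of siRNA and harvested after 48 hours, in 3 arrays per siRNA. Both groups carried an siRNA and passed through nucleofection, no untreated cells were among the samples, and BATF3 was targeted by a single siRNA. Nothing in the labels says that replicates were cultured separately; the p-values therefore describe the spread of these samples, and that spread could be technical. Values are log2 array signals as deposited, and a difference is BATF3 siRNA minus control siRNA on that scale.

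Interferons bind receptors that activate JAK kinases, which phosphorylate STAT proteins. After a type I or III interferon, STAT proteins and IRF9 form the complex ISGF3, which binds the interferon-stimulated response element, or ISRE, in the promoters of these genes. After interferon gamma, a STAT dimer binds a different element called GAS. BATF3 is a basic leucine zipper factor that pairs with JUN proteins on AP-1 elements, some of which lie beside IRF sites, and it is abundant in Hodgkin lymphoma cells.

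The shared element is visible in the promoter sequences of the genes. RefSeq promoters (GRCh38.p14), covering 250 bases before to 50 bases after the gene start, were held for 33 of the 42 genes. An ISRE core, searched on both strands as GAAA, any 2 bases and GAAA again, occurred in 23 of these 33 promoters (69.7%) and in 3.57% of all 35116 promoters of the same length. The GAS pattern TTCNNNGAA, which reads the same on both strands, occurred in 9 of 33 (27.3%) against 7.66%, and in 4 genes (BST2, EPSTI1, IFI27 and IFITM1) it overlapped an ISRE core. The AP-1 pattern TGANTCA, also palindromic, occurred in 3 of 33 (9.09%: IFIT5, ISG20 and SAMD9L) against 7.71%. A match describes letters and is not evidence of binding. The following 60-base stretches, all before the gene start, are shown because 4 of them (IFI44, PLSCR1, EPSTI1 and GBP1) belong to genes with a difference above 0.15 and 3 (IFIT1, ISG15 and BST2) to genes with a smaller one. Capitals mark the ISRE core, which appears as its reverse complement in IFI44, GBP1 and IFIT1.
IFI44 (chr1:78649729-78649788, plus strand): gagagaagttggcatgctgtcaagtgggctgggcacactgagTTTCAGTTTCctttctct
PLSCR1 (chr3:146544648-146544707, minus strand): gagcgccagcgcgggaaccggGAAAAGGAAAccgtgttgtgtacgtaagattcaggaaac
EPSTI1 (chr13:42992262-42992321, minus strand): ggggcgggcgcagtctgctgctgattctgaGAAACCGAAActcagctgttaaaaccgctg
GBP1 (chr1:89065299-89065358, minus strand): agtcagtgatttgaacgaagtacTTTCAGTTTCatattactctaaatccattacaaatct
IFIT1 (chr10:89392483-89392542, plus strand): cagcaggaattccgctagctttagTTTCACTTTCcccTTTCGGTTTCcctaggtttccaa
ISG15 (chr1:1013357-1013416, plus strand): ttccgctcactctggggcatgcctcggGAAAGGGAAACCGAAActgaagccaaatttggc
BST2 (chr19:17405726-17405785, minus strand): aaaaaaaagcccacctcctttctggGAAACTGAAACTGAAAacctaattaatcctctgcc

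The targeted gene set the frame for the comparison. BATF3 read 10.87, 10.76 and 10.69 in BATF3 siRNA replicates 1, 2 and 3 and 11.89, 12.08 and 11.94 in the control replicates. The groups did not overlap and the BATF3 level was 0.436 of the control level (difference −1.20, SE 0.095, n = 3 each; limma adjusted p = 0.00673). BATF3 was not called when BATF3 siRNA replicate 3 was left out (limma adjusted p = 0.0688, difference −1.16), nor without control siRNA replicate 2 (0.0648, −1.14) or with array background as a covariate (0.250, −1.11). Of 10 marker genes of Hodgkin and Reed-Sternberg cells, 9 lay above the highest background probe set in all 6 arrays, including TNFRSF8 (CD30), IRF4 and CCL17, while CCL22 lay under it in every array. None of 7 T and NK cell, 6 myeloid and plasmacytoid dendritic cell or 7 fibroblast and epithelial markers lay above it in any array, and of 5 B cell markers CD79B alone did. The control probe sets for background with many G and C bases averaged 5.92 and 5.98 in BATF3 siRNA replicates 2 and 3 and 6.46 to 6.49 in the other 4 arrays. With that background as a covariate, a fit therefore mainly compares BATF3 siRNA replicate 1 with the controls.

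As a list, the interferon-stimulated genes were centred slightly above the control level after BATF3 siRNA, and no single member passed the test. Of the 42 genes 33 had a positive difference, where 49.0% of all genes did. The median was 0.081 and the range −0.18 to 0.71, beside a median of −0.0027 for all genes. After limma with Benjamini-Hochberg adjustment (threshold 0.05) 0 of 42 members passed, where 0.0164% of all genes did (3 of 18244; 0.00548% higher and 0.0110% lower). By the unadjusted p under 0.05, 8 were higher and 0 lower, against 3.73% and 3.42% of all genes. The groups were fully separate with BATF3 siRNA above in 8 genes and below in 0, against 6.36% and 5.78% of all genes. The 8 genes at an unadjusted p under 0.05 were ETV7, OASL, IFI44, GBP2, OAS2, GBP1, PLSCR1 and USP18. The count of higher members was 2 without BATF3 siRNA replicate 3, where 2.36% of all genes were higher. It was 3 without control siRNA replicate 1 (3.51% of all genes) and 3 without control siRNA replicate 3 (2.59%). The median was 0.053 without control siRNA replicate 3.

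The confidence intervals bound the size of the differences in the chosen probe sets. The median standard error of a member was 0.107, the same as over all genes. Of all 18244 genes, 17245 had a 95% confidence interval within a 1.5-fold difference in either direction, and 18205 had one within 2-fold. For 39 members it lay within 1.5-fold, and for all 42 it lay within 2-fold. The exceptions to the narrower bound were OASL (0.14 to 0.69), GBP1 (0.025 to 0.92) and ETV7 (0.44 to 0.99), each on the higher side. These bounds do not cover other probe sets of the same genes. Differences there reached 0.40 for SAMD9L, 0.39 for OAS1 and IFI44L, and −0.29 for OAS3.

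**Figure D1:**
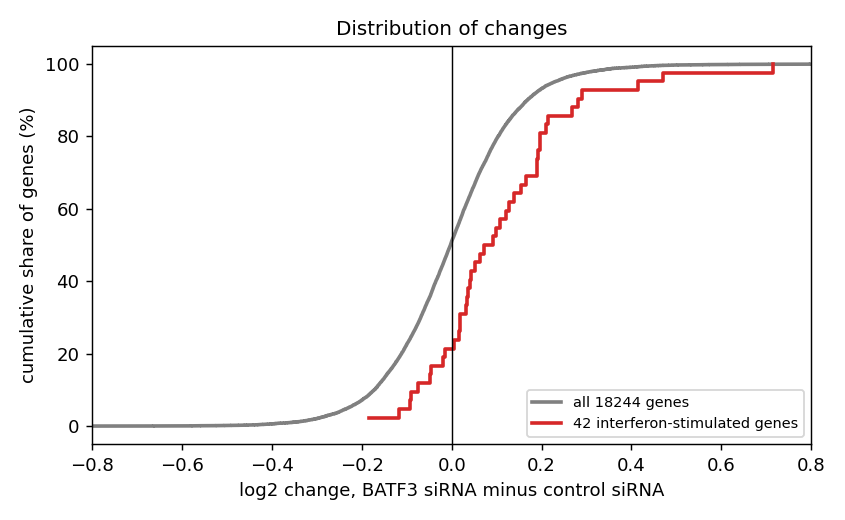
Cumulative share of genes (%, vertical) against the log2 difference, BATF3 siRNA minus control siRNA (horizontal), for the 42 interferon-stimulated genes (red) and all 18244 genes (grey). The red curve lies to the right of the grey one, with medians of 0.081 and −0.0027. The axis ends at 0.8 on either side, so the few genes beyond it are not drawn.

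**Figure D2:**
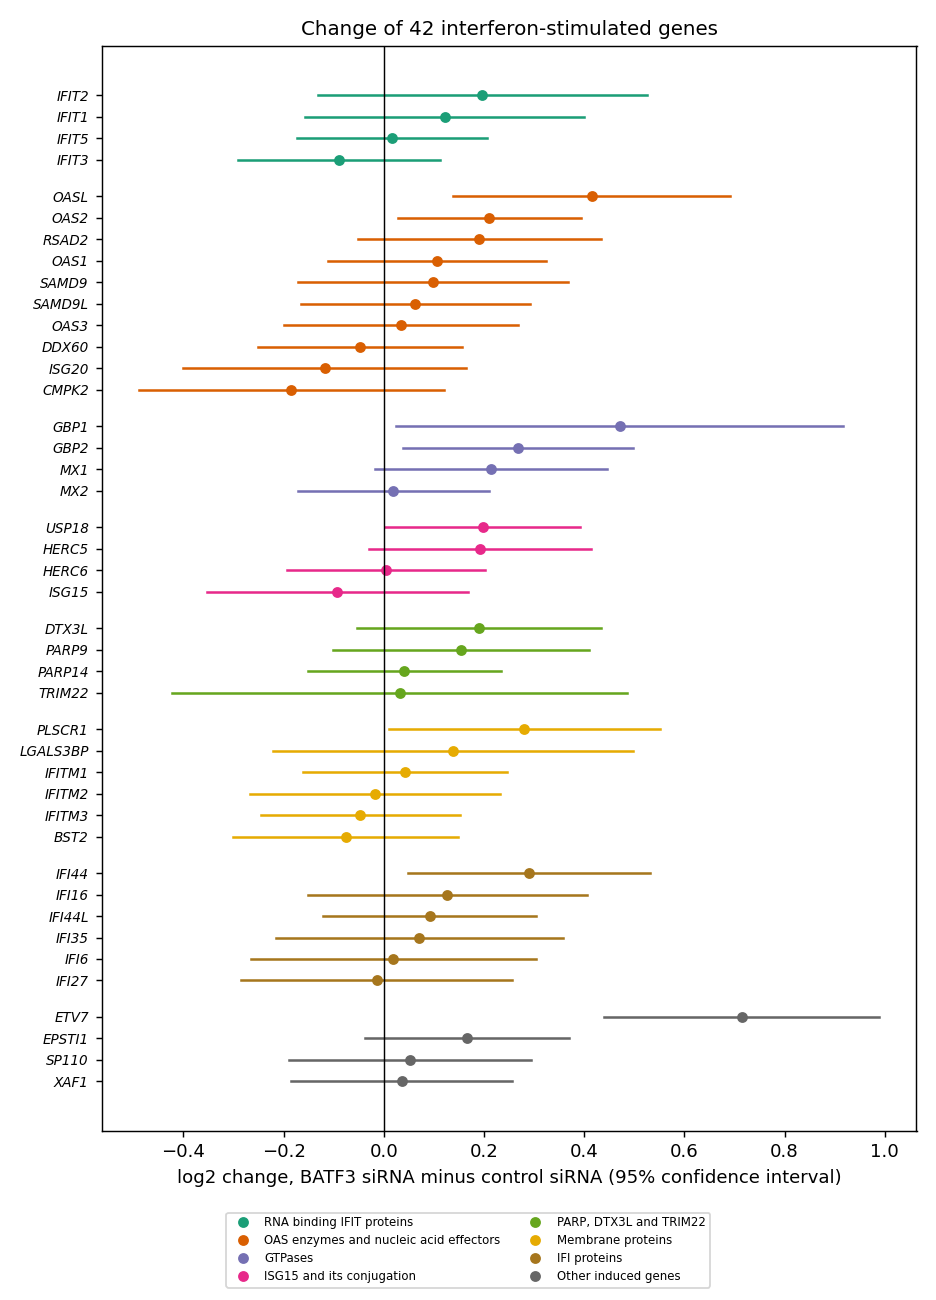
Log2 difference of each of the 42 genes with its 95% confidence interval from limma (n = 3 arrays per siRNA), grouped by role. ETV7 stands at 0.71, and most other intervals include 0.

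The arrays contributed unequally to this shift. Set against the mean of the 3 controls, the median member stood at 0.14, 0.055 and 0.080 in BATF3 siRNA replicates 1, 2 and 3, and at −0.028, 0.023 and −0.025 in control replicates 1, 2 and 3. The medians of all 18244 genes, taken the same way, lay between −0.022 and 0.023. BATF3 siRNA replicate 1 had the largest shift, and its G and C rich background was at the level of the controls. It held the highest value of 14 members, where 18.0% of all genes peaked in that array. Control siRNA replicate 1 held the highest value of 1 member and the lowest of 12, where it was highest for 11.5% and lowest for 18.4% of all genes. Control siRNA replicate 2 was the highest array for 8 members, as for 27.3% of all genes. With the array background as a covariate the median member difference was 0.13, and 33 members were positive. That fit mainly compares BATF3 siRNA replicate 1 with the controls, because replicates 2 and 3 differ from them in background. It is therefore not a separate check of the shift.

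**Figure D3:**
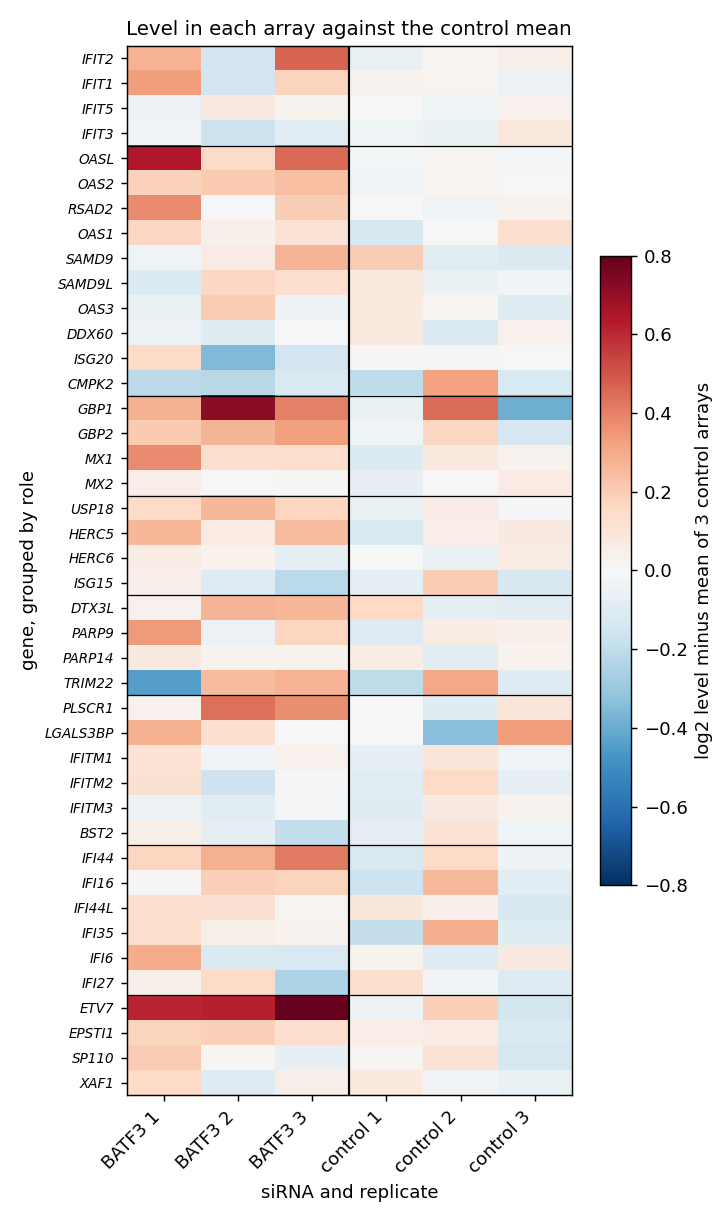
Log2 level of each member in each of the 6 arrays minus that gene's mean over the 3 control arrays, from blue (lower) through white to red (higher), with lines between roles. ETV7, OASL and GBP1 are the strongest red entries, and OASL and IFIT2 are paler or blue in BATF3 siRNA replicate 2.

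Signal over background limits what can be said of many members. The highest background probe set of each array read 6.68 to 7.32. The selected probe sets of 25 members exceeded it in all 6 arrays, those of 9 in some and those of 8 in none. The 9 were OAS1, OAS2, MX1, HERC5, PARP9, IFITM3, IFI27, IFI44 and EPSTI1. OAS1, OAS2, IFI27, IFI44 and EPSTI1 exceeded it only in BATF3 siRNA replicates 2 and 3, and MX1 only in replicate 2. In those replicates it was lowest, at 6.68 and 6.73. PARP9 exceeded it in the 3 BATF3 siRNA arrays and in no control array. The 8 were IFIT1, OASL, RSAD2, CMPK2, DDX60, GBP1, TRIM22 and LGALS3BP. Since background varies with the base content of probes, and the probe sequences were not looked at, the sizes of these genes' differences are uncertain. Among the 28 members whose mean over all arrays exceeded the mean of that background level, 22 were positive with a median of 0.047, beside 53.7% and 0.011 for the 8431 genes chosen the same way. Among the 14 dimmer members 11 were positive with a median of 0.15, beside 44.9% and −0.018 for the 9813 other genes. Separate groups with BATF3 siRNA above occurred in 3 of the 28 members, beside 721 of the 8431 genes. They occurred in 5 of the 14 dimmer members, beside 440 of the 9813 genes. With BATF3 siRNA below, there were 0 members in either set, beside 453 and 601 genes.

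Among the IFIT proteins, IFIT1 binds viral RNA that lacks host cap marks and blocks its translation. Of the 4 IFIT genes 0 passed the test, and 3 had a positive difference. IFIT2 read 9.23, 8.80 and 9.42 after BATF3 siRNA and 8.89, 8.97 and 9.00 after control siRNA. The groups overlapped, because BATF3 siRNA replicate 2 lay below every control while replicates 1 and 3 lay above, and the difference was 0.20 (SE 0.15; limma adjusted p = 0.843). It was 0.063 without BATF3 siRNA replicate 3 and 0.37 without BATF3 siRNA replicate 2. IFIT3 read 8.18, 8.04 and 8.12 against 8.17, 8.15 and 8.29, a difference of −0.090 (SE 0.089; limma adjusted p = 0.885). IFIT1 (0.12) was split around the controls in the same way. It read 6.26 in BATF3 siRNA replicate 2, under all controls, and 6.74 and 6.58 in replicates 1 and 3, above them. IFIT5 was at 0.017.

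The OAS enzymes sense double-stranded RNA and make short oligoadenylates as an alarm signal, and OASL is their relative without that activity, which enhances RNA sensing. Among these and 6 other genes that act on nucleic acids or nucleotides, 7 of 10 differences were positive and 0 genes passed. OASL read 6.21, 5.72 and 6.03 after BATF3 siRNA and 5.56, 5.59 and 5.56 after control siRNA. All 3 treated arrays lay above the tightly grouped controls, and the difference was 0.41 (SE 0.12; limma adjusted p = 0.528), at levels that no array placed above its highest background probe set. OAS2 read 6.94, 6.96 and 6.99 against 6.73, 6.77 and 6.75. These 2 sets of OAS2 values were separate with a spread of 0.028 and 0.023 (SD, n = 3 each), a difference of 0.21 (SE 0.081; limma adjusted p = 0.644), and all 5 OAS2 probe sets were positive (0.025 to 0.27).

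The chosen probe sets of OAS1 and OAS3 did not share that separation, which varied with the probe set. A dimmer OAS1 probe set was separate, at 5.12, 4.73 and 4.70 against 4.45, 4.46 and 4.64. A dimmer OAS2 probe set overlapped, at 6.06, 5.94 and 6.23 against 5.64, 5.95 and 5.85. The probe set chosen for OAS1 was at 0.11, the smallest of its 4, which reached 0.39, and that for OAS3 was at 0.035, the one positive value among 3 that went down to −0.29. ISG20, an exonuclease that degrades viral RNA, read 10.06, 9.56 and 9.76 after BATF3 siRNA and 9.92, 9.90 and 9.91 after control siRNA, a difference of −0.12 (SE 0.13; limma adjusted p = 0.895). The controls of ISG20 had an SD of 0.010, while the treated arrays spread to both sides of them. RSAD2, or viperin, which makes a chain-terminating nucleotide, was at 0.19 and its genomic neighbour CMPK2, a mitochondrial nucleotide kinase, at −0.18, both far under the background level in all arrays. SAMD9 (0.099) and SAMD9L (0.063), paralogs that restrict poxviruses, and the helicase-like DDX60 (−0.047) had groups that overlapped in their chosen probe sets. The 4 probe sets of SAMD9L ran from −0.083 to 0.40. The highest of these was separate, at 6.64, 6.32 and 6.66 against 6.19, 6.19 and 6.04, but under background in every array.

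The dynamin-like MX proteins trap viral nucleocapsids, and the guanylate-binding proteins coat pathogen membranes. All 4 of these GTPase genes had a positive difference and 0 passed. GBP1, which is known above all as a target of interferon gamma, read 5.69, 6.13 and 5.81 after BATF3 siRNA and 5.35, 5.85 and 5.01 after control siRNA. The groups overlapped through control siRNA replicate 2, and the difference was 0.47 (SE 0.20; limma adjusted p = 0.689), with all 5 probe sets positive (0.051 to 0.47). The GBP1 difference was 0.27 without control siRNA replicate 3, 0.26 as the mean of its probe sets, 0.29 with array background as a covariate and 0.77 with array weights. GBP2 read 8.58, 8.64 and 8.70 against 8.34, 8.54 and 8.24. Its groups were separate, above background in every array, with a difference of 0.27 (SE 0.10; limma adjusted p = 0.640). For MX1 the treated arrays (6.93, 6.68 and 6.69) also lay above the controls (6.44, 6.63 and 6.58), by 0.21 (SE 0.10; limma adjusted p = 0.734). MX2 read 9.13, 9.07 and 9.09 against 9.01, 9.08 and 9.14 (difference 0.019, or −0.024 with array weights).

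ISG15 is a ubiquitin-like protein, HERC5 is the ligase that attaches it, HERC6 is the paralog of HERC5, and USP18 removes it and also blocks signalling at the interferon receptor. Of these 4 genes 3 had a positive difference and 0 passed. ISG15 itself read 10.39, 10.25 and 10.14 after BATF3 siRNA and 10.28, 10.56 and 10.22 after control siRNA. The groups overlapped and the difference was −0.093 (SE 0.12; limma adjusted p = 0.915), which was 0.010 without control siRNA replicate 2. USP18 read 7.66, 7.77 and 7.67 against 7.44, 7.57 and 7.49. The 3 treated arrays of USP18 lay above the 3 controls, with a difference of 0.20 (SE 0.087; limma adjusted p = 0.697). HERC5 read 7.61, 7.41 and 7.59 against 7.22, 7.40 and 7.41, values that overlapped narrowly between the groups (0.19, SE 0.099; limma adjusted p = 0.759), and HERC6 was at 0.0048.

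PARP9 and DTX3L form a complex that links ADP-ribosylation to ubiquitin, PARP14 is a related transferase, and TRIM22 is an antiviral ubiquitin ligase. The 4 differences were positive and 0 passed. DTX3L read 9.07, 9.31 and 9.31 after BATF3 siRNA and 9.20, 8.97 and 8.95 after control siRNA. BATF3 siRNA replicate 1 lay among the controls, and the difference was 0.19 (SE 0.11; limma adjusted p = 0.798). It was 0.049 with array background as a covariate, 0.069 as the mean of the probe sets and −0.040 with the most variable probe set. PARP9, which is transcribed divergently from DTX3L, had a different order of arrays, with 7.31, 6.92 and 7.14 against 6.87, 7.03 and 7.01 (0.15, SE 0.11; limma adjusted p = 0.843). The PARP9 difference was 0.062 without BATF3 siRNA replicate 1, 0.25 without BATF3 siRNA replicate 2 and −0.030 with the most variable probe set. PARP14 read 9.76, 9.71 and 9.71 against 9.75, 9.60 and 9.71, a difference of 0.041 (SE 0.085; limma adjusted p = 0.954). TRIM22 was at 0.032, under background in every array, and of its 6 probe sets 2 were positive.

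Among the membrane and secreted proteins, IFITM1, IFITM2 and IFITM3 hinder the fusion of viral and cell membranes and BST2, or tetherin, holds budding virions at the cell surface. PLSCR1 is a scramblase with antiviral activity and LGALS3BP a secreted glycoprotein. Of these 6 genes 3 had a positive difference and 0 passed. PLSCR1 read 9.14, 9.54 and 9.47 after BATF3 siRNA and 9.10, 9.01 and 9.20 after control siRNA. Replicates 2 and 3 lay above all controls and replicate 1 among them, for a difference of 0.28 (SE 0.12; limma adjusted p = 0.689). All 6 PLSCR1 probe sets were positive (0.16 to 0.30). In the chosen probe set, the 2 arrays with the higher PLSCR1 level were those with the lower G and C rich background. With that background as a covariate, which leaves mainly replicate 1 to compare with the controls, its difference was 0.042. The order of arrays varied between PLSCR1 probe sets. A second bright one read 8.18, 8.08 and 8.19 against 7.94, 7.80 and 7.94, with replicate 1 above all controls. A dim one kept the order of the chosen probe set, with 6.25, 6.46 and 6.61 after BATF3 siRNA. A link to background was not tested.

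The IFITM genes and BST2 gave bright signals, except IFITM3, with no separation between groups. IFITM2 read 11.12, 10.83 and 10.98 after BATF3 siRNA and 10.91, 11.16 and 10.91 after control siRNA, a difference of −0.018 (SE 0.11; limma adjusted p = 0.985) that was 0.0032 after median centring. IFITM1 was at 0.042, IFITM3 at −0.046 and BST2 at −0.076. The IFITM genes are close paralogs, so how far their probe sets read each other's transcripts is uncertain. LGALS3BP read 5.20, 5.05 and 4.92 against 4.92, 4.58 and 5.26, with the lowest and the highest value both in the controls (0.14, SE 0.16; limma adjusted p = 0.908).

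The genes named IFI for interferon induction have varied roles. IFI44 and IFI44L are paralogs linked to antiviral states, IFI16 senses DNA in the nucleus, IFI6 and IFI27 encode small hydrophobic proteins, and IFI35 binds its partner NMI. Of these 6 genes 5 had a positive difference and 0 passed. IFI44 read 7.01, 7.12 and 7.26 after BATF3 siRNA and 6.72, 6.998 and 6.80 after control siRNA. The groups were narrowly separate, with a difference of 0.29 (SE 0.11; limma adjusted p = 0.622), and all 6 IFI44 probe sets were positive (0.25 to 0.38). IFI16 read 10.01, 10.20 and 10.18 against 9.83, 10.26 and 9.92, where control siRNA replicate 2 was the highest array of all (0.13, SE 0.12; limma adjusted p = 0.882). The IFI16 difference was 0.26 without that array, 0.040 without control siRNA replicate 1 and 0.014 with array background as a covariate. IFI44L was at 0.091, the smallest of its 3 probe sets, which reached 0.39. IFI35 (0.071), IFI6 (0.019) and IFI27 (−0.014) had overlapping groups.

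The largest difference of the list belonged to ETV7, an ETS family repressor that is itself induced by interferon. ETV7 read 8.66, 8.67 and 8.96 after BATF3 siRNA and 8.01, 8.24 and 7.90 after control siRNA. The groups were well separate, at 1.64 times the control level (difference 0.71, SE 0.12, 95% confidence interval 0.44 to 0.99), and ETV7 ranked 14 of 18244 genes by p, yet its limma adjusted p was 0.226. Array weights, which gave control siRNA replicate 3 a weight of 3.85 and control siRNA replicate 2 one of 0.384, called it (adjusted p = 0.0255), within a range over 16 alternative fits of 0.0255 to 0.827. Its 7 probe sets disagreed. The 2 brightest were at 0.71 and 0.54, and the other 5, which lay under background in every array, ran from −0.27 to 0.20, so averaging all 7 gave 0.16.

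EPSTI1, XAF1 and SP110 complete the list. EPSTI1, first described in breast epithelium next to stroma, read 6.78, 6.79 and 6.74 after BATF3 siRNA and 6.66, 6.67 and 6.48 after control siRNA. These groups were separate and the difference was 0.17 (SE 0.090; limma adjusted p = 0.778), or 0.11 without control siRNA replicate 3. SP110, a nuclear body protein, read 9.83, 9.64 and 9.56 against 9.65, 9.74 and 9.49, which overlapped (0.052, SE 0.11; limma adjusted p = 0.953). XAF1, an antagonist of the apoptosis inhibitor XIAP, was at 0.036, the smallest of 7 probe sets that were all positive and reached 0.32.

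Probe sets that did not stand for a gene gave a further view of the same RNA. The 42 genes had 115 probe sets, of which 84 were positive with a median of 0.091, where 48.9% of all probe sets were positive. Among 49393 probe sets tested together 0 of the 115 passed, where 0.0101% of all did (5 probe sets; limma, adjusted p under 0.05). Of the 73 not used for a gene value, 51 were positive. In 26 genes with several probe sets, all were positive in 13, none in 3 (CMPK2, IFI27 and IFITM2) and the signs were mixed in 10. Probe sets of 1 gene share its transcripts and arrays and are not replicates.

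**Figure D4:**
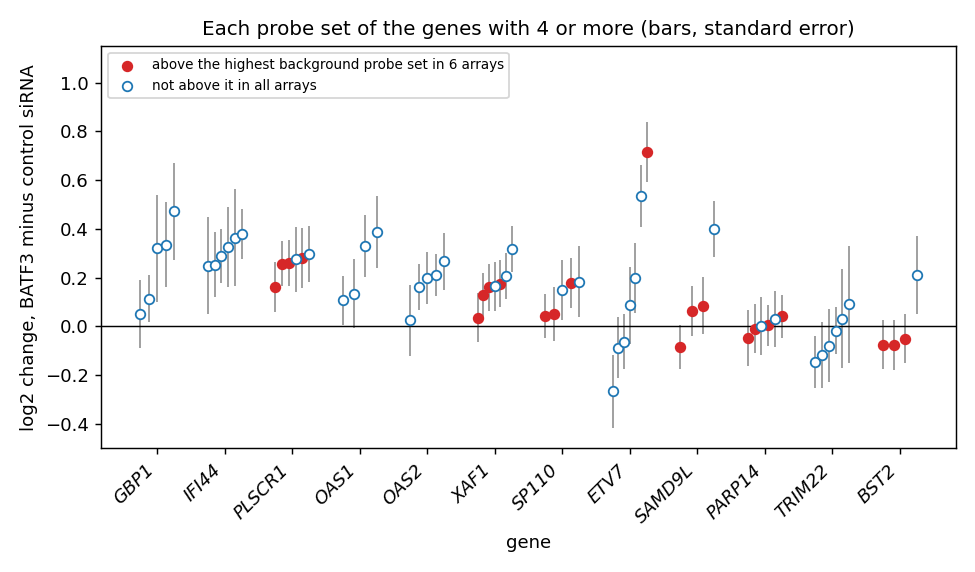
Log2 difference, BATF3 siRNA minus control siRNA, of every probe set of the members with 4 or more, with its standard error from limma (n = 3 arrays per siRNA). Red points exceeded the highest background probe set in all 6 arrays and open blue points did not. The probe sets of PLSCR1 lie between 0.16 and 0.30, while those of ETV7 run from −0.27 to 0.71.

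The differences were also set beside the promoter matches, as a description. The 23 genes with a match had a median difference of 0.042 and 16 positive values, and the 10 with a promoter but no match had 0.067 and 9 positive values. In the stretches shown above, ISG15 and BST2 each carry 2 overlapping cores and were at −0.093 and −0.076, while IFI44 carries 1 and was at 0.29. HERC5, which is not shown there, carries 3 cores, 2 of them overlapping, and was at 0.19. For GAS the medians were 0.042 in 9 genes with a match and 0.077 in 24 without. The 3 genes with an AP-1 match were ISG20 at −0.12, IFIT5 at 0.017 and SAMD9L at 0.063. ETV7, OASL, OAS2, GBP2 and USP18, which had separate groups, were not in the promoter table.

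The rest of the interferon pathway was read from 47 genes, 2 of which (ISG15 and USP18) are members of the list, and 0 passed the test in either direction (limma with Benjamini-Hochberg adjustment). By the unadjusted p under 0.05 the counts were 0 of 7 ligands, 0 of 6 receptor chains, 1 of 9 JAK and IRF relays, 1 of 7 feedback inhibitors and 2 of 18 sensors and adaptors, all higher, where 3.73% of all genes were higher and 3.42% lower. The relay list held STAT genes too, and these were not analysed here. The ligand genes lay under background in every array, with the smallest p for IFNL1 (−0.19) and IFNA2 (−0.15). Among receptor chains these were IFNGR1, of the interferon gamma receptor, at 0.23 and IFNAR2, of the type I receptor, at −0.16. Among the inhibitors, apart from USP18, it was PIAS1, a SUMO ligase, at −0.17.

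Among the relays the groups were separate in 1 gene with BATF3 siRNA above and in 1 with it below, and among the sensors in 2 above and 0 below, where 6.36% and 5.78% of all genes were. IRF9, the DNA-binding part of ISGF3, read 9.33, 9.41 and 9.32 after BATF3 siRNA and 8.94, 9.21 and 9.21 after control siRNA, with separate groups (0.23, SE 0.10; limma adjusted p = 0.699). JAK1, the kinase shared by the interferon receptors, was the relay with BATF3 siRNA below, by a margin in the fourth decimal (9.0851 at most against 9.0853 at least; difference −0.11, SE 0.088; limma adjusted p = 0.849). IRF1, a factor induced by interferon gamma, was at 0.15 with a limma adjusted p of 0.807. EIF2AK2, the double-stranded RNA kinase PKR, read 10.35, 10.45 and 10.40 against 10.23, 10.16 and 10.20. These EIF2AK2 values were also separate (0.20, SE 0.083; limma adjusted p = 0.689). TLR3, an endosomal receptor for double-stranded RNA, read 4.88, 4.89 and 4.79 against 4.44, 4.35 and 4.49, separate but under background in every array (0.42, SE 0.087; limma adjusted p = 0.337).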

How the data were processed

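Total RNA of 6 L428 samples was hybridised as biotin-labelled cRNA to Affymetrix PrimeView arrays. The authors deposited log2 values, 1 per probe set and array, with the base of 2 inferred from their range. Per the submitters' processing notes the affy package was used, and the sources used here do not give the normalization method. Array medians ran from 6.24 to 6.33, and the values were used as deposited. Of 49495 probe sets, 45278 were annotated to a single gene, 1333 to several and 2782 to none, and 102 were controls. The single-gene probe set with the highest mean stood for each of 18244 genes. The arrays share a common scale, which would hide a shift common to most transcripts.

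R 4.3.3 and limma 3.58.1 were used to fit differences (functions lmFit and eBayes, no covariate, two-sided) over all genes. P-values were adjusted by Benjamini-Hochberg, with a call at an adjusted p under 0.05. The fit was tested on simulated data. An exact permutation test of 3 arrays against 3 cannot give a p below 0.1. Values in every array are given for BATF3 and, in each of 8 role groups, for the 2 members with the smallest p and the 1 with the highest level; MX1, IFIT1 and the 2 probe sets of ETV7 were added after their values were seen, as were the per-array values of 4 pathway genes. From each pathway list the 2 genes with the smallest p are named. The members and lists were chosen with earlier results of these data known. Pathway genes that lacked a single-gene probe set, the STAT genes of the relay list included, were not analysed here. Alternatives covered normalization, probe set choice, filters on dim genes, the variance model, array weights, the replicate number as a block, array background (the mean of control probe sets whose probes hold 20 to 25 G or C bases) and each array left out.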

Additional observations from a re-analysis of the deposited data

How the results depend on the processing

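The members kept a positive median in all 16 alternatives, of which the filters left 28 and 38 members. Some alternatives could not move the median. The replicate block and the intensity trend with robust prior change only the variance, and both gave the main value of 0.081. The median was 0.12 with the most variable probe set and 0.047 with genes above the highest background probe set (28 members). It was 0.13 with array background as a covariate and 0.053 to 0.11 with 1 array left out. Between 29 and 33 members were positive with 1 array left out. At an adjusted p under 0.05 limma called 0 members in 15 alternatives and 1 (ETV7) with array weights. At an unadjusted p under 0.05 the count was 4 with the background filter, where 5.35% of the genes kept were higher. With 1 array left out it was 2 to 9, where 2.36% to 4.81% of all genes were higher. Without BATF3 siRNA replicate 1, 8 members were higher and 1 was lower. Other pathway genes stayed at 0 calls with 1 array left out. Over all genes 5 were called with the most variable probe set, 7 with the background filter, 6 with a filter at a mean of 5, 12 with an intensity trend and robust prior, 25 with array weights, 0 with the background covariate, and 0 to 2 with 1 array left out. BATF3 was at −1.11 with the covariate (adjusted p = 0.250) and at −1.24 to −1.14 with 1 array left out. The cause of these shifts was not tested.

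Of 345 alternative values for 22 named members, 326 kept direction and side, 1 passed the threshold and 18, in 9 genes, changed sign, none of them a called value. In some fits the sign could not change, because the filters, the replicate block and the variance trend leave a gene's difference as it was. With the most variable probe set DTX3L was at −0.040 and PARP9 at −0.030. IFITM2 was at 0.0032 with median centring, 0.019 with array weights and 0.13 with the covariate, under which ISG15 was at 0.028 and ISG20 at 0.15. Array weights gave LGALS3BP −0.12 and MX2 −0.024. With 1 array left out the values ran for IFITM2 from −0.089 to 0.062, for ISG15 from −0.16 to 0.010, for ISG20 from −0.25 to 0.00074, for LGALS3BP from −0.029 to 0.31, for MX2 from −0.014 to 0.051, for PARP14 from −0.00087 to 0.070 and for SP110 from −0.024 to 0.11.

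Same-numbered arrays of the 2 siRNAs correlated, in deviations from their group means across genes, at 0.029, 0.15 and −0.025. The other pairings ran from −0.10 to 0.097. Because the deviations of each group sum to 0, these values cannot show whether a shared number marks a shared batch. With the replicate number as a block limma called 3 genes and 0 members, and BATF3 stayed at −1.20. In that fit 6 members were higher at an unadjusted p under 0.05, beside 3.60% of all genes. The number of arrays and the 8 members above the highest background probe set in no array limit these results.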
